A study of Rattus norvegicus with 42 samples.

Results

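In GH4C1 cells, 41 of 13776 genes had a mean level in wild-type cells of at least 4 times that in Neat1-deleted cells at each of 7 sampling times. Members were chosen from the counts themselves: the mean level of the wild-type replicates had to be at least 4 times that of the knockout replicates at every time, and the mean of the 7 wild-type group means had to reach 5 CPM. CPM is the count divided by the library total and multiplied by 1000000. Both were taken without 2 genes that held 17.6% to 21.2% of the counts of each knockout library, and 1 wild-type library was left out. Because this contrast chose the members, the difference between genotypes is described with values and is not tested. The course over time within each genotype did not choose the members, although the limit at every time bounds how far a member could move, and it is tested. The library that was not used is described.

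The GH4C1 cell line comes from a rat pituitary tumour and is of the somatolactotroph lineage, the cells that make growth hormone and prolactin. The wild-type group (WT) carried no treatment. The knockout group (KO) was Neat1 -/- by CRISPR-Cas9 deletion. Both were grown in Ham F10 medium with horse and fetal calf serum, given fresh medium, and collected at 7 times, 10 h (T10, ZT10 in the titles) to 34 h (T34) later and 4 h apart. There were 3 replicates per genotype and time and 42 libraries. Whether KO cells came from 1 clone or several, and whether replicates were separate cultures, is not given in the sources used here, so p-values measure the spread between these libraries, which may be technical. Clone, editing procedure and loss of Neat1 cannot be told apart in this design. In bulk RNA, fewer cells of a type and less RNA per cell cannot be told apart either.

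Neat1 is a long non-coding RNA of the nucleus that forms the scaffold of paraspeckles, nuclear bodies built with RNA-binding proteins of the SFPQ, NONO and PSPC1 group. Paraspeckles can hold back certain RNAs and proteins inside the nucleus, and in pituitary cells they have been studied as a link between the circadian clock and RNA output. Clock rhythms in cultured cells can be set in step by a change of serum or medium, and the cells here were given fresh medium before sampling.

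Genes in the tables are named by Ensembl identifiers, and 0 of the 13776 identifiers matched the reference gene table used here. The level of Neat1, the lineage markers of the cells, the functions of the members, their positions and their promoters were therefore not analysed here. The genotype labels were used as given. Members are called member 1 to member 41 in order of falling mean WT level. CPM is not divided by gene length, so this order is one of read share and not of transcript number.

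Library totals lay between 34.5 and 68.8 M counts for WT (M, 1000000) and between 45.9 and 60.5 M counts for KO. WT T34 replicate 1 stood apart from its group in earlier results of these data. It is the library that the members' rule left out, and it was left out of the tests below, so that WT T34 has 2 libraries. It is described separately at the end.

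In WT the members ran from 5.23 to 4061 CPM, with a median of 17.0 CPM. Among them, 14 had a WT level from 5 to 10 CPM, 15 from 10 to 100 CPM, 11 from 100 to 1000 CPM and 1 above that. In KO they ran from 0.031 to 312 CPM, with a median of 1.73 CPM. The KO level was at least 10 CPM for 15 members, from 1 to 10 CPM for 14 and under 1 CPM for 12. Together the members held 0.646% to 1.26% of the counts of a WT library, with the 2 dominant genes left out, and 0.0779% to 0.0962% of those of a KO library.

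The ratio of mean WT to mean KO level was 5.01 to 305, with a median of 8.93. It lay between 4 and 8 for 16 members, between 8 and 16 for 14 and above 16 for 11. Over the 41 members Spearman's rho between WT level and ratio was -0.08. Limits on the WT level and on the ratio chose the members, so nothing is read from this value. The KO level followed the WT level over members (Pearson's r of the log10 levels 0.92); a limit on the ratio of the same levels chose these genes. Small ratios occurred among genes with few reads and among genes with many. The largest ratios did not. Every ratio above that of member 5 (18.6, at 384 CPM in WT) belonged to a member at 39.1 CPM in WT or less.

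**Figure D1:**
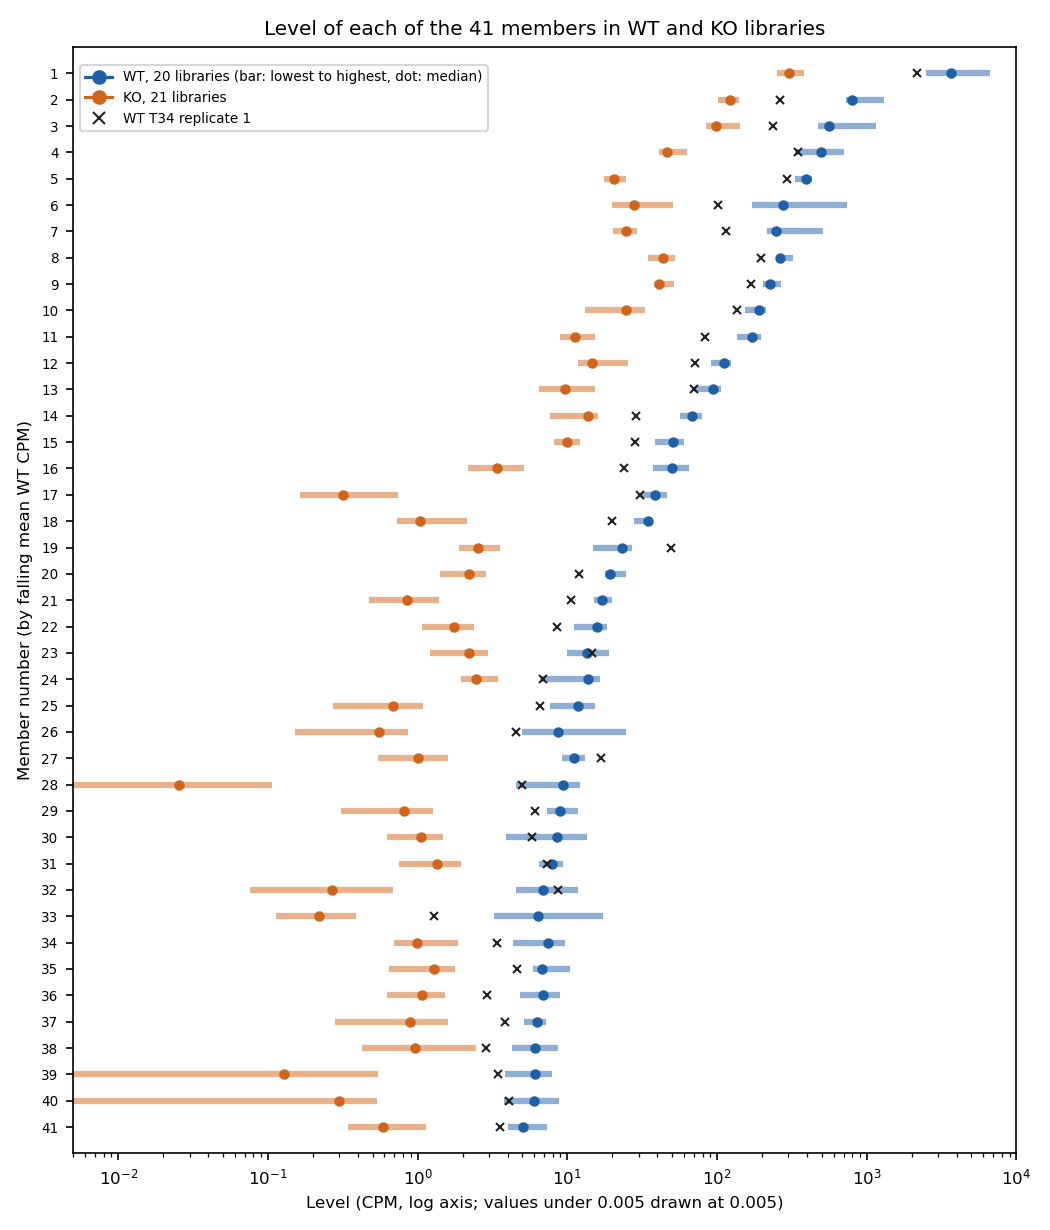
Level of each member in CPM on a log axis, with a bar from the lowest to the highest library and a dot at the median, for 20 WT libraries (blue) and 21 KO libraries (orange). The cross is WT T34 replicate 1. The bars of WT and KO do not meet for any of the 41 members, and the cross lies left of the WT bar for 31 of them.

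The 20 WT libraries lay above the 21 KO libraries for all 41 members. Of all 13774 genes with a CPM, 18.8% had every WT library above every KO library. For the members the rule makes this likely, and nothing is read from it. The lowest WT library was 1.74 times the highest KO library for member 38, the narrowest gap, and 1.93 times for member 24. For the other 39 members the gap was at least 2-fold, and the median gap over all members was 4.87-fold.

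The member with the highest level, ENSRNOG00000017374 (member 1), had 2490 CPM in the lowest, 3669 CPM in the median and 6613 CPM in the highest of 20 WT libraries. In the 21 KO libraries the lowest, median and highest values were 251, 303 and 381 CPM. All WT libraries were thus far above all KO libraries, although WT itself varied more than 2-fold. The ratio of mean levels was 13.0.

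Member 2 had 728, 792 and 1302 CPM as lowest, median and highest WT library, and 102, 122 and 140 CPM in KO, a ratio of 7.12. Member 3 had 470, 556 and 1157 CPM in WT and 84.9, 98.7 and 142 CPM in KO, a ratio of 6.11. Both were skewed upward in WT, with the median library near the lowest and far from the highest. Members 4, 5, 6 and 7 had WT means of 502, 384, 358 and 292 CPM and ratios of 10.5, 18.6, 11.8 and 11.7. Members 8, 9 and 10 had WT means of 273, 227 and 186 CPM and ratios of 6.32, 5.45 and 7.84. The 10 members with the highest WT level thus spanned ratios from 5.45 to 18.6, and each kept more than 17 CPM in its KO libraries except member 10, whose lowest KO library had 13.1 CPM.

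The largest ratio belonged to ENSRNOG00000055557 (member 28). It had 4.53 CPM in the lowest, 9.29 in the median and 12.1 in the highest WT library. In KO it was nearly absent, with 9 of 21 libraries at 0 counts and 27 counts in all KO libraries together (exact Poisson 95% interval 17.8 to 39.3, counting error only). Pooled over KO this is 0.031 CPM (0.020 to 0.045). The ratio of mean levels was 305, and its size rests on those 27 counts. Only 2 further members had any KO library at 0, members 39 and 40, with 1 such library each.

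Member 17 came next by ratio, at 109. Its WT libraries ran from 31.2 to 46.4 CPM with a median of 38.8. Its KO libraries ran from 0.16 to 0.74 CPM with a median of 0.32, from 318 counts in all. Members 39, 33, 18, 32 and 26 followed with ratios of 35.9, 34, 28.5, 25.4 and 21.9, and members 25, 21 and 40 with 19.1, 18.9 and 18.6. Except for members 17 and 18, the members with ratios above 20 had WT levels under 12 CPM, where KO counts were few.

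At the other end, 3 members lay just inside the 4-fold limit at their lowest time. Member 38 reached 4.04 at T34, member 23 reached 4.04 at T26 and member 15 reached 4.19 at T10. The 3 genes just outside, with at least 5 CPM in WT, had lowest ratios of 3.97, 3.91 and 3.90, and their ratios of mean levels, at 6.73, 4.56 and 4.96, were near the 5.41, 6.38 and 5.01 of the 3 members just inside. Without the limit on level, 72 genes (0.523% of 13774) met the 4-fold limit at all times. Of these, 31 were below 5 CPM in WT, the nearest at 4.70 CPM, against 5.23 CPM for the lowest member. The edge of the list is therefore not a gap in the data.

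The median ratio over members changed little with time. It was 8.46 at T10, 9.0 at T14 and 9.89 at T18. From T22 on it was 8.68, 9.18, 9.25 and 10 in order of time. Single members moved much more. The highest of a member's 7 ratios was 1.25 to 13.0 times its lowest, with a median of 2.02, and it was over 3 times the lowest for 5 members. For 13 members the lowest ratio was at T34 and for 9 at T10, while the highest ratio was at T10 for 9 members and at T14 or T30 for 8 each.

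**Figure D2:**
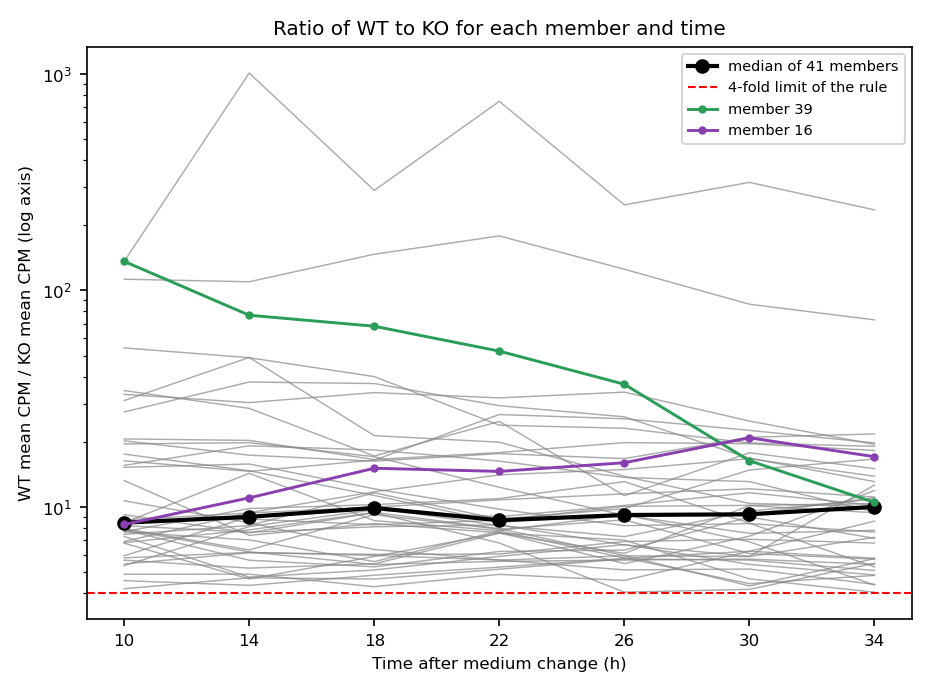
Ratio of the WT to the KO group mean for each member (grey lines) against time after the medium change, on a log axis, with the median of 41 members in black and the 4-fold limit dashed. The median stays between 8.46 and 10, while member 39 falls from 136 to 10.5 and member 16 rises from 8.30 to 17.1.

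Change over time was then tested within each genotype, which the choice of members did not use. An edgeR quasi-likelihood test of the 7 group means was fitted on all 13776 genes, with calls made where the adjusted p was below 0.05. In WT, 26 of 41 members were called, against 44.1% of all genes. In KO, 29 of 41 were called, against 60.6% of all genes. The members' share was above that of all genes in WT and, in this fit, somewhat above it in KO. Without KO replicate 1, 2 or 3 the KO count was 22, 28 or 26, against 52.7%, 44.2% and 44.8% of all genes. The members' share without KO replicate 1 was thus near that of all genes. Leaving out WT replicate 2 or 3 leaves 1 WT library at T34, whose spread is then assumed to be that of the other groups. Without WT replicate 2 the WT count was 16, against 25.8% of all genes, and with WT T34 replicate 1 included the KO count was 18, against 36.8%. Both genotypes called 20 members, against 31.6% of all genes, WT alone 6 and KO alone 9. The 6 members called in neither were members 21, 24, 29, 35, 36 and 37. Member 21 (adjusted p 0.93 in WT and 0.85 in KO by edgeR) had WT group means of 16 to 18.5 CPM, KO group means of 0.82 to 1.07 CPM and a ratio between 16.5 and 20.6 at all times.

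In KO, calls were fewer at low levels. Of the 15 members with at least 10 CPM in KO, 13 were called. Of the 14 members from 1 to 10 CPM, 11 were called, and of the 12 under 1 CPM, 5 were. The share of all genes called at these levels was not determined, so nothing particular to the members is read from these counts. The coefficient of variation between replicates had a median of 7.43% over members in WT, near the 6.5% of all genes, and of 16.4% in KO, against 5.88% of all genes. The members were thus measured with a wider relative error in KO than most genes.

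In WT the largest changes were falls. The highest of a member's 7 WT group means was 1.15 to 4.46 times the lowest, with a median of 1.48, against 1.24 over all genes. From T10 to T34, 27 members were called by edgeR, against 34.3% of all genes. Of these members 11 were higher and 16 lower at T34, while 17.1% of all genes were called higher and 17.2% lower. Without WT replicate 2, which leaves 1 library at T34 and takes the spread from the other groups, 15 were called, 5 higher and 10 lower, against 21.5% of all genes. With WT T34 replicate 1 included, 20 members were called, 4 higher and 16 lower, against 37.9% of all genes, of which 60.3% were higher. The median log2 change over all 41 members was 0.01. The 16 members that fell did so by 0.18 to 2.13 on the log2 scale, and all 16 had their highest group mean at T10 or T14. These members were picked for a lower level at T34 than at T10, so an early peak is largely set by that choice. In 12 of them the group means fell at each step from T14 to T26. The like shares of all genes called lower were not determined.

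ENSRNOG00000055025 (member 33) fell most. Its WT replicates had 16.4, 17.2 and 14.4 CPM at T10, and the 2 at T34 had 3.63 and 3.54 CPM. Every T34 library was far below every T10 library, a log2 change of -2.13 (SE 0.20, adjusted p 7.21e-10 by edgeR). In KO the same gene had 0.27, 0.23 and 0.39 CPM at T10 and 0.25, 0.20 and 0.12 CPM at T34. These values overlap, and its log2 change of -0.73, from 38 and 24 counts, was not called (SE 0.34, adjusted p 0.083 by edgeR).

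ENSRNOG00000004222 (member 6) was next, at far higher counts. In WT its group means went from 725 ± 20.1 CPM at T10 to 372 ± 22.5 at T18 and 196 ± 3.58 at T26 (SD, n = 3 each). They then stayed near that level, with 188 ± 13.9 at T30 (SD, n = 3) and 194 ± 4.72 at T34 (SD, n = 2). The log2 change from T10 to T34 was -1.88 (SE 0.08, adjusted p 5.07e-18 by edgeR). In KO the replicates had 42.8, 48.9 and 51.0 CPM at T10 and 25, 24.9 and 25.9 CPM at T34. KO libraries did not overlap between these times either, with a log2 change of -0.97 (SE 0.08, adjusted p 3.22e-12 by edgeR). The gene thus fell in both genotypes, at a KO level many times lower.

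Member 26 fell by 1.61 (SE 0.22, adjusted p 4.40e-07 by edgeR) in WT, from 24.8, 24.4 and 22.7 CPM to 7.66 and 7.83 CPM, and its log2 change of -0.49 in KO was not called (adjusted p 0.17). Members 1, 2, 3 and 7 also fell in WT, by 1.11, 0.71, 1.15 and 1.05 on the log2 scale. For members 2, 3 and 7 KO fell too, by 0.23, 0.70 and 0.47. Member 1 did not follow. Its WT replicates had 6008, 5980 and 6613 CPM at T10 and 2858 and 2797 CPM at T34 (adjusted p 9.67e-15 by edgeR), whereas its KO replicates had 301, 319 and 332 CPM at T10 and 381, 342 and 366 CPM at T34. The KO libraries of T34 were all above those of T10, but the log2 change of 0.13 was not called (SE 0.06, adjusted p 0.052 by edgeR). Over the 7 times the KO level did change (adjusted p 1.26e-05 by edgeR), from 271 ± 17.6 CPM at T18 to 363 ± 19.4 at T34 (SD, n = 3 each). The ratio of WT to KO for member 1 went from 19.5 at T10 to 7.79 at T34.

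Over all 16 members that fell in WT, the median log2 change in KO was -0.18, with 6 called lower and 2 called higher. Their falling WT level is the numerator of the ratio of WT to KO, so a falling ratio is largely set by how these members were picked. Their median ratio was 15.9 at T10 and 8.64 at T34, and it was higher at T10 than at T34 for 15 of the 16. For the 11 members that rose in WT, picked by the opposite change, the median ratio was 6.80 at T10 and 10.9 at T34, and 2 of the 11 had the higher ratio at T10. The change of the ratio was not tested, for this reason and because the contrasts behind it chose the members.

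**Figure D3:**
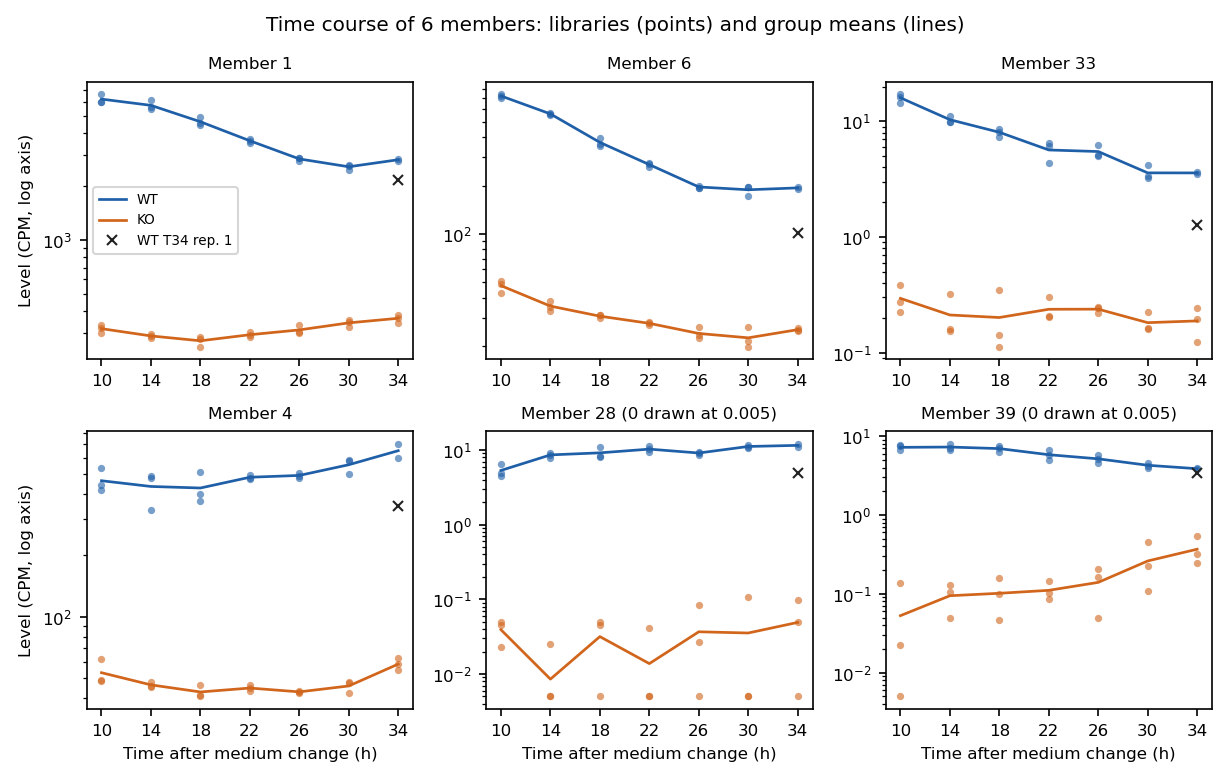
CPM on a log axis against hours after the medium change for 6 members, with each library as a point, group means as lines, WT in blue, KO in orange and WT T34 replicate 1 as a cross; 0 counts are drawn at 0.005. Members 1, 6 and 33 fall in WT, members 4 and 28 rise, and member 39 falls in WT and rises in KO.

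The 11 members that rose in WT did so by 0.28 to 1.15 on the log2 scale, and 9 of them had their lowest group mean at T10 or T14. An early lowest mean is largely set by picking members with a higher level at T34 than at T10. The largest rise was that of ENSRNOG00000055557 (member 28), with 5.0, 4.53 and 6.48 CPM at T10 and 12.1 and 11.0 CPM at T34, a log2 change of 1.15 (SE 0.24, adjusted p 3.57e-04 by edgeR). Both T34 values were above all T10 values. In KO it had at most 4 counts in a library, so a change of that size was not detectable there. Member 34 rose by 0.99 (SE 0.20), from 4.36, 4.48 and 5.26 CPM to 9.59 and 8.73 CPM, and member 38 by 0.85 (SE 0.23). In WT T34 replicate 1, left out of the tests, members 28, 34 and 38 had 5.0, 3.41 and 2.87 CPM. For member 28 this was within its T10 values, and for members 34 and 38 below all of theirs. Members 19 and 27, which also rose, were higher there than in any other WT library. Without WT replicate 2, with 1 library left at T34, the log2 changes were 0.94 for member 28 and 0.69 for member 38, and neither was called (adjusted p 0.077 and 0.19 by edgeR).

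Member 4 was the most abundant of the members that rose. Its WT replicates had 533, 442 and 418 CPM at T10 and 600 and 703 CPM at T34, a log2 change of 0.51 (SE 0.12, adjusted p 0.0013 by edgeR). Both T34 values exceeded the T10 values, with a spread at both times. WT T34 replicate 1, left out of the tests, had 347 CPM, below every WT T10 value. In KO the replicates of member 4 had 48.6, 49.2 and 62.0 CPM at T10 and 54.6, 58.4 and 63.0 CPM at T34. These overlap, and the log2 change of 0.08 was not called (SE 0.11, adjusted p 0.59 by edgeR).

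In KO, 21 members were called from T10 to T34 by edgeR, against 50.6% of all genes, a like share. Of these members 8 were higher and 13 lower at T34, while 23.6% of all genes were called higher and 27.0% lower. The median log2 change over the 41 members was -0.03. With library totals in place of TMM, a scaling to the bulk of genes, 58.5% of all called genes were higher at T34 in KO against 46.7%, and the members' split was 10 higher and 11 lower. A change of 2-fold or more was called in KO for 2 members that rose and 1 that fell. The share of all genes with a called change of that size was not determined.

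The largest rise in KO was that of ENSRNOG00000032669 (member 39). Its KO replicates had 0, 0.02 and 0.14 CPM at T10 and 0.54, 0.32 and 0.25 CPM at T34, from 7 and 47 counts. Every T34 library was above every T10 library, with a log2 change of 2.62 (SE 0.53, adjusted p 1.07e-04 by edgeR), whose size rests on few counts. The log2 change was 1.73 without KO replicate 1, 2.33 without KO replicate 2 and 4.84 without KO replicate 3, and was called each time (adjusted p 0.0073, 0.0034 and 2.14e-06 by edgeR). The group mean was higher at each later time in KO, from 0.053 CPM at T10 to 0.14 at T26, 0.26 at T30 and 0.37 at T34. In WT the same gene fell from 7.61, 7.41 and 6.6 CPM to 3.84 and 3.89 CPM, a log2 change of -0.88 (SE 0.27, adjusted p 0.0100 by edgeR). The WT libraries of T10 and T34 did not overlap. Without WT replicate 1, 2 or 3 the log2 change was about as large, at -0.84, -0.88 and -0.92, but with fewer libraries, 1 of them at T34 in the last 2 fits, it was not called (adjusted p 0.059, 0.15 and 0.098 by edgeR). Its ratio went from 136 at T10 to 10.5 at T34, the widest drift among the 41 members.

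Member 38 rose by 1.51 in KO (SE 0.26, adjusted p 1.29e-05 by edgeR), with 0.42, 1.06 and 0.52 CPM at T10 and 1.5, 2.04 and 2.45 CPM at T34. Members 17, 18 and 31 rose by 0.97, 0.93 and 0.93 on the log2 scale. For these the highest KO level was still under 2.2 CPM in any library. Member 17 was not called without KO replicate 1 (adjusted p 0.17 by edgeR).

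Member 25 had the largest fall in KO, by 1.21 on the log2 scale (SE 0.26, adjusted p 2.10e-04 by edgeR), from 1.09, 0.81 and 0.89 CPM at T10 to 0.69, 0.30 and 0.29 CPM at T34. In WT it fell as well, by 0.83 (SE 0.19), from 15.1, 15.2 and 15.3 CPM to 9.05 and 7.66 CPM. The groups did not overlap in either genotype.

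Members 10 and 14 had their lowest KO levels at the end of sampling. Member 14 had 15.1, 13.1 and 15.1 CPM at T26, 13.6, 9.59 and 12.4 CPM at T30 and 7.83, 7.70 and 8.17 CPM at T34 in KO, and its T34 libraries were below all those of T26 and T30. Its log2 change from T10 to T34 was -0.83 (SE 0.11, adjusted p 2.02e-07 by edgeR) in KO and 0.07 (SE 0.10, adjusted p 0.63) in WT. Member 10 had 33, 24.3 and 27.8 CPM at T30 and 14.7, 13.1 and 16.1 CPM at T34 in KO, with a log2 change from T10 of -0.70 (SE 0.13, adjusted p 2.60e-05 by edgeR), against 0.01 in WT (SE 0.12, adjusted p 0.97). The ratio of WT to KO was highest at T34 for both, at 8.59 for member 14 and 12.6 for member 10.

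Member 12 had its highest KO values at T30, with 21.2, 25.5 and 24.3 CPM, against 12.6, 13.3 and 11.8 CPM at T18. These did not overlap, and the KO level changed over the 7 times (adjusted p 7.15e-08 by edgeR), whereas the WT level, at 101 to 119 CPM in its group means, was not called (adjusted p 0.27). Member 5 was among the steadiest. Its WT group means ran from 347 to 416 CPM and its KO group means from 18.3 to 23.7 CPM, and both changed by the test over 7 times (adjusted p 2.09e-04 and 3.89e-06 by edgeR). Its ratio stayed between 16.3 and 21.7.

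**Figure D4:**
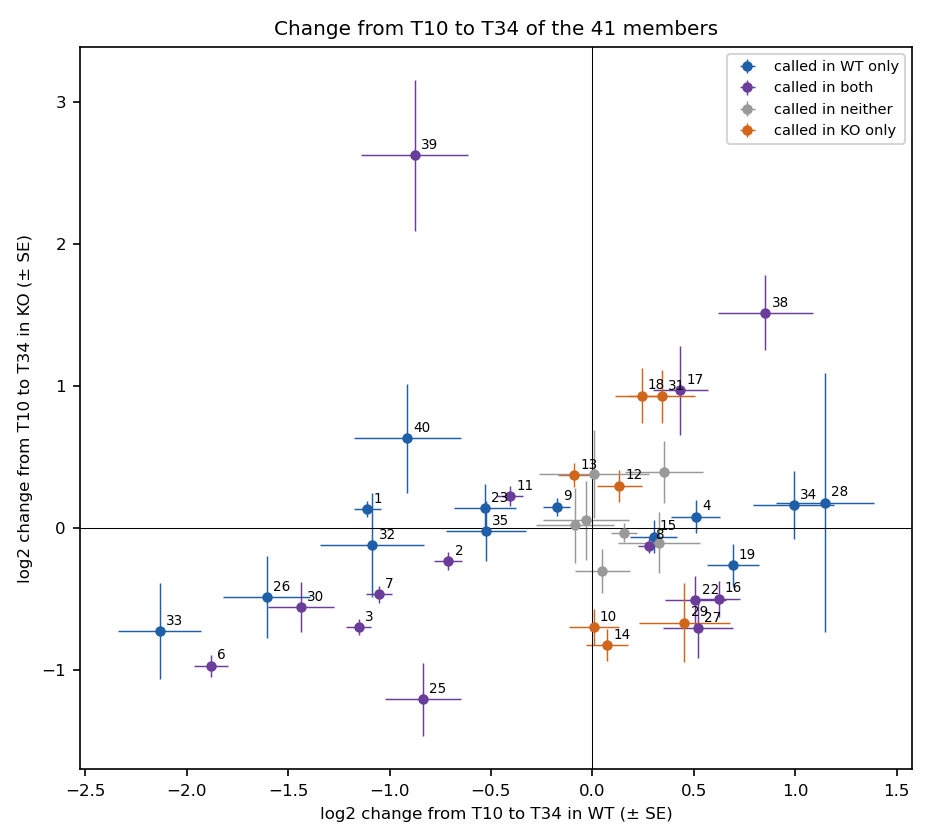
log2 change from T10 to T34 in WT (horizontal) against KO (vertical) for the 41 members, each with its SE, coloured by the edgeR call at an adjusted p under 0.05. Of the 14 members called in both genotypes, 6 lie lower left, 2 upper right, 4 lower right and 2 upper left.

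The T34 to T10 change was called in both genotypes for 14 members, against 20.2% of all genes, in WT alone for 13, in KO alone for 7 and in neither for 7. Of the 14, 8 moved the same way, as did 1792 of the 2785 genes called in both genotypes (13% of all genes tested). These were 6 that fell in both genotypes (members 2, 3, 6, 7, 25 and 30) and 2 that rose in both (members 17 and 38). The other 6 moved in opposite directions, against 993 of those 2785 genes (7.21% of all genes tested). The members' split was thus not far from that of all genes called in both. These counts are descriptions. Member 17 had 30.6 CPM in WT T34 replicate 1, left out of the tests, below all 20 other WT libraries. Over the 7 times its WT level was not called (adjusted p 0.18 by edgeR). Members 8, 16, 22 and 27 rose in WT and fell in KO, and members 11 and 39 did the reverse. Member 8 had 196 CPM in WT T34 replicate 1, below all 20 other WT libraries, of which the lowest had 254 CPM. Over the 7 times the WT level of member 27 was not called (adjusted p 0.12 by edgeR). Member 16 is an example of a rise in WT and a fall in KO. Its WT replicates had 43.8, 40.6 and 38.9 CPM at T10 and 65.4 and 59 CPM at T34, and its KO replicates had 4.97, 4.76 and 5.13 CPM at T10 and 3.7, 3.37 and 3.86 CPM at T34. The libraries used did not overlap between these times in either genotype. WT T34 replicate 1, left out of the tests, had 23.8 CPM, below every WT T10 library. The log2 changes were 0.62 (SE 0.11, adjusted p 1.96e-05 by edgeR) in WT and -0.50 (SE 0.13, adjusted p 0.0014 by edgeR) in KO. Some of the calls depended on 1 replicate or on the scaling. In KO, member 8 was not called with library totals (log2 change -0.06, adjusted p 0.33 by edgeR), without KO replicate 2 (-0.08, 0.31) or without KO replicate 3 (-0.13, 0.053). Member 11 was not called without KO replicate 2 (0.14, 0.18), nor member 22 without KO replicate 3 (-0.27, 0.24). In WT the log2 changes of members 22 and 27 stayed near their size with a replicate left out, at 0.47 to 0.57 and 0.50 to 0.54. With so few libraries, 1 at T34 without replicate 2 or 3, member 27 was not called in any of these fits (adjusted p 0.067, 0.19 and 0.12 by edgeR) and member 22 was not called without replicate 2 or 3 (0.081 and 0.11).

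Because the study was about rhythms, a 24 h cosinor, which fits a cosine and a sine term, was tested by edgeR in each genotype. In WT 17 of 41 members were called, against 14% of all genes. In KO 11 of the 39 members that passed the filter on low counts were called, against 34.6% of all genes, and members 28 and 39 did not pass it. Both genotypes called 7 members, against 6.47% of all genes. The amplitude, the distance from mean to peak on the log2 scale, was 0.13 to 0.87 in WT, with a median of 0.37 over the called members, against 0.15 over all called genes. In KO it was 0.12 to 0.53 with a median of 0.17, against 0.16.

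Of the 17 WT calls, 13 had a fitted peak from 10 to 18 h, 1 from 18 to 26 h and 3 from 26 to 34 h. The 3 lowest p-values were those of members 26, 1 and 23, with amplitudes of 0.87, 0.56 and 0.36 and peaks at 13.4, 14.6 and 14.8 h. In KO 4 called members peaked from 10 to 18 h, 2 from 18 to 26 h and 5 from 26 to 34 h. The fitted peak times of all called genes were not determined, so nothing particular to the members is read from these counts. Members 12, 1 and 5 had the lowest p-values, with amplitudes of 0.43, 0.17 and 0.17 and peaks at 29.0, 30.8 and 22.7 h.

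A call does not by itself show a cycle. T10 and T34 share the phase of a 24 h rhythm, yet 14 of the 17 members called in WT, and 8 of the 11 called in KO, differed between these times by the test above. That test called 34.3% of all genes in WT and 50.6% in KO. Its share among all genes called by the cosinor was not determined. The sampling spanned 24 h, so no peak could be seen again. The cosinor counts also fell to 1 to 4 members in WT and 0 to 2 in KO when any replicate of that genotype was left out, as the share of all genes called fell to 1.27% to 2.21% in WT and 0% to 6.9% in KO.

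WT T34 replicate 1, which took no part in the choice of members or the tests, gave the members a lower level than its group. It lay below both other WT T34 libraries for 35 of 41 members and above both for 5, while 42.1% of all genes were below both. It lay below all 20 other WT libraries for 31 members, against 31.5% of all genes, and above all of them for 2 (members 19 and 27), against 41%. It was above every KO library for all 41 members. The median ratio to the mean of replicates 2 and 3 was 0.61 over members, from 0.33 to 1.93, and 1.07 over all genes. For 11 members the ratio was under 0.5, as for 6.19% of all genes.

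**Figure D5:**
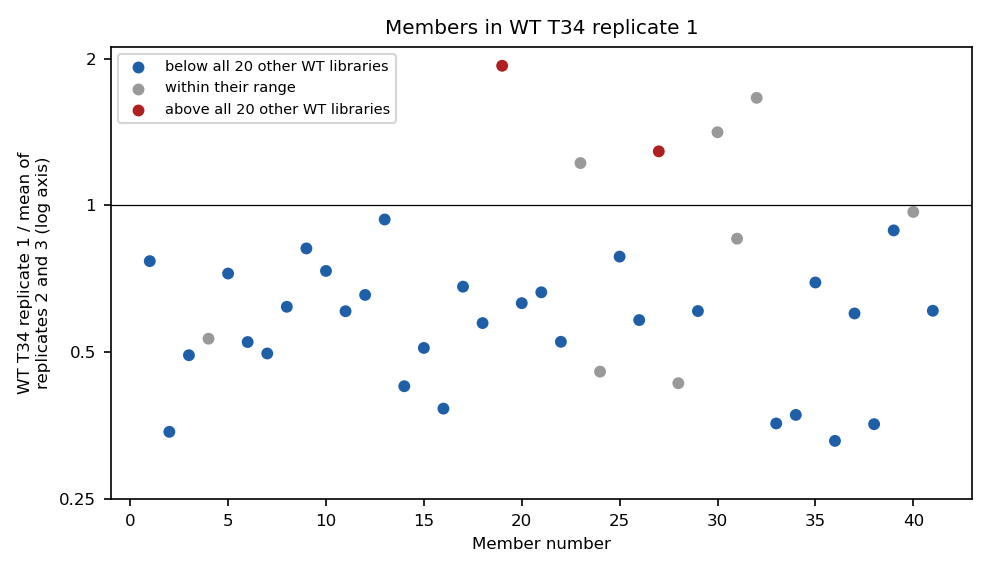
CPM in WT T34 replicate 1 divided by the mean of replicates 2 and 3, on a log axis, for each member. Blue points are below all 20 other WT libraries (31 members), grey points within their range (8) and red points above all of them (2); the median ratio is 0.61.

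On a linear scale from the mean of the KO T34 libraries at 0 to the mean of WT T34 replicates 2 and 3 at 1, this library lay at a median of 0.57 over the members, with quartiles of 0.43 and 0.76 and extremes of 0.14 for member 38 and 2.03 for member 19. Member 36 had 2.9 CPM, against 8.64 and 8.96 CPM in replicates 2 and 3. Member 2 had 262 CPM, against 794 and 731 CPM, and member 38 had 2.87 CPM, against 8.61 and 7.51 CPM. These were the lowest 3 ratios. Members 19, 32 and 30 had the highest, at 1.93, 1.66 and 1.41, and member 19 had 49.3 CPM against 25.8 and 25.2 CPM. The 2 genes that dominate KO libraries lay at 0.99 and 0.98 on the same scale, next to WT. The 114 genes at least 4-fold higher in KO by the mirrored rule had a median of 0.31 and spread widely, with quartiles of -0.35 and 0.79. The cause of the lower level of the members in this library was not tested.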

How the data were processed

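The authors deposited 2 tables of whole-number counts of reads per gene, 1 per genotype, without normalization and for the same 13776 genes; featureCounts did the counting, per the submitters' processing notes. Libraries were strand-specific with paired reads of 150 bp, per the labels' protocols. Aligner, genome build, annotation, strand setting and gene filter are not given in the sources used here, so genes that overlap or have near-identical copies are uncertain. The lowest of the genes' highest group means was 50.3 counts.

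The 42 columns were matched to samples by the labels' descriptions. No pair of replicates agreed within sampling noise (chi-square per degree of freedom at least 5.48 in 42 pairs). Tests used edgeR 4.0.16 in R 4.3.3: quasi-likelihood F tests with TMM scaling and filterByExpr, which removed 0 genes from the fit of 14 groups, on 41 libraries, with Benjamini-Hochberg adjustment over all genes tested. The cosinor was fitted per genotype, on 13737 genes in WT and 13753 in KO. SE is the log2 change divided by the square root of F. DESeq2 1.42.0 was an alternative, beside other scalings, the replicate block and left-out libraries. Scripts were tested on simulated data.

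The members, lists and tests were chosen with earlier results of these data known. The rule for naming genes asked for symbols, which no identifier had, so numbers are used and 5 identifiers are printed. It took the 10 highest WT levels and 10 largest ratios, per genotype the 3 highest and 3 lowest called changes and 3 lowest cosinor p-values, the 3 nearest on either side of the 4-fold limit, and the 3 highest and lowest ratios in WT T34 replicate 1. Other members were picked after their values were seen. Neat1, gene lists, positions and promoters were not analysed here.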

Additional observations from a re-analysis of the deposited data

Results flagged for a closer look

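For 7 members every T34 library lay on one side of every T10 library in WT and on the opposite side in KO. This difference between genotypes was not tested. Of all genes, 12.8% were apart in opposite directions in this way. The comparison is of 2 with 3 libraries in WT and 3 with 3 in KO, and in single genotypes 23.5% and 27.2% of all genes were separated upward and downward in WT, and 34.6% and 25.4% in KO. The 7 of 41 members are thus not far from the share of all genes. The log2 change from T10 to T34 was -1.11 in WT and 0.13 in KO for member 1, -0.18 and 0.15 for member 9, -0.41 and 0.22 for member 11, and -0.88 and 2.62 for member 39. It was 0.62 in WT and -0.50 in KO for member 16, 0.51 and -0.51 for member 22, and 0.52 and -0.71 for member 27. The KO changes of members 1 and 9 were not called by edgeR (adjusted p 0.052 and 0.051). In WT T34 replicate 1, not among these libraries, members 16 and 22 had 23.8 and 8.48 CPM, below every WT T10 library. The other members listed kept their side there. With all 42 libraries, member 22 was not called in either genotype (adjusted p 0.33 in WT and 0.073 in KO by edgeR), nor was member 16 (0.29 and 0.092).

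Members 19 and 27 were higher in WT T34 replicate 1, the library outside the tests, than in each of the 20 other WT libraries. Member 19 had 49.3 CPM there, against 14.9 to 26.9 CPM in those, and member 27 had 16.9 CPM, against 9.21 to 13.2 CPM. Of all genes, 41% were above all other WT libraries in this one.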

How the results depend on the processing

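Alternatives gave 320 values for 31 results, and the cause of a change was not tested unless named. All 241 alternative log2 changes of 23 single-member results kept their sign, and 25 were no longer called. Of 79 counts of members, 64 lay within 1.5 times. The list held 41 genes; it held 65 with column sums that include the 2 dominant genes, 77 at 3-fold, 66 at 1 CPM and 27 at 10 CPM, the last 3 by construction, and 40 to 41 with a replicate left out, of which 38 or 39 were members. With all 42 libraries it held 42, of which 40 were members. With all 42 libraries the time test called 18 members in KO (36.8% of all genes) and the WT cosinor 3 (1.85%). T34 against T10 in WT was then called for 20 members (37.9% of all genes), 4 higher and 16 lower. Without WT replicates in turn, which leaves 1 T34 library when replicate 2 or 3 is out, the time test called 16 to 21, T34 against T10 15 to 22 and the cosinor 1 to 4, lowest for the first 2 without replicate 2. Without KO replicates in turn the KO cosinor called 0 to 2 members (0% to 6.9% of all genes), with an unadjusted p under 0.05 for 12 or 13. DESeq2 on all KO libraries called 13 members at an adjusted p under 0.05, against 41.1% of all genes. Without the T34 libraries the WT cosinor called 29, against 24.4% of all genes. Members below all other WT libraries in WT T34 replicate 1 numbered 34 with TMM-scaled CPM, a scaling chosen after seeing the data, as were library totals. Replicate numbers did not pair the libraries: same-numbered deviations correlated at a mean of -0.01 in WT and 0.03 in KO. With the replicate block, WT and KO counts were 25 and 28 for the 7 times, 25 and 23 for T34 against T10, and 15 and 11 for the cosinor. The shares of all genes, in the same order, were 44% and 60.6%, 33.9% and 50.7%, and 11.3% and 31.1%. The setting without a filter says nothing for fits from which 0 genes were removed. KO members under 1 CPM are limited by depth. Alternatives for gene lists, Neat1, positions and promoters were not run.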
